A study of Mus musculus with 2 samples.

Results

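Distal regions of open chromatin that were called in NMuMG cells both with vehicle and after 2 h of TGFβ1 were described as pairs of DNaseI peaks. A pair was 1 vehicle interval and 1 TGFβ 2 h interval that overlapped each other by at least 1 bp and overlapped no other interval of the opposite list. Both intervals had to lie outside 1000 bp on either side of every transcript start in the GENCODE M1 annotation, after identical intervals within a list had been counted once. This gave 4918 distal pairs among 13978 one-to-one pairs (35.2%, Wilson 95% interval 34.4 to 36.0). The pairs were selected on the called positions alone, so their overlap and widths come from the values that chose them. Another 9031 pairs had both intervals at a start and are called promoter pairs, and 29 pairs had 1 of their 2 intervals at a start.

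NMuMG is an epithelial cell line from normal mouse mammary gland. Both groups were deprived of serum and insulin for 6 h. The group labelled TGFb2h then received 5 ng/ml TGFβ1 for 2 h, and the group labelled Veh received the carrier solution, which the labels describe both as HCl with BSA and as Tris-HCl with BSA. There was 1 peak list per condition and no list of a single replicate, so no difference below was tested between the treatments, and every interval covers the counting of regions only.

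DNaseI cuts DNA that is not tightly packed with nucleosomes, and short fragments released from nuclei pile up at promoters, enhancers and insulators. A distal site open in both conditions can be an enhancer that is already accessible before the signal, or a site bound by an architectural protein such as CTCF. TGFβ binds a receptor kinase complex that activates SMAD proteins, and it also activates MAP kinase pathways that feed into AP-1, a family of dimers of JUN, FOS and ATF proteins. In mammary epithelial cells TGFβ drives the epithelial to mesenchymal transition, in which junctions and keratins are lost and contractile and matrix genes are gained. The open region is seen here only as the stretch that the peak caller reported, so its width and position are known and its height is not.

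The sequences below show what these regions hold, on the plus strand of mm9. The first 4 are windows of 120 bp around the midpoint of the shared part of a pair near AP-1 and junction genes, chosen because an exact string of a factor family lies at the centre. The capitals mark TGACTCA (AP-1) near Fosb, GGAATG (TEAD) near Fosl1, TGTGGTT (RUNX) near Fos, and CCGGAAG (ETS) followed by GGAATG near Tjp1. The CTCF string searched was CCA, 2 bases of any kind, AG, 2 bases of any kind, GGC, and no pair eligible for printing had it within 30 bp of its midpoint.
Fosb, chr7:19912663-19912782: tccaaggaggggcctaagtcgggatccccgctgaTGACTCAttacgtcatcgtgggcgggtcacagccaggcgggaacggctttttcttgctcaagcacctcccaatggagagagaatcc
Fosl1, chr19:5445109-5445228: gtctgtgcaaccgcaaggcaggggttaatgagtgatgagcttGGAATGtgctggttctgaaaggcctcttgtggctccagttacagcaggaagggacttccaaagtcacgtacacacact
Fos, chr12:86813260-86813379: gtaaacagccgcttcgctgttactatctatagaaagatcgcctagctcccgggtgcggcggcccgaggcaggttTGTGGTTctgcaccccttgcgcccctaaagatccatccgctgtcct
Tjp1, chr7:72614836-72614955: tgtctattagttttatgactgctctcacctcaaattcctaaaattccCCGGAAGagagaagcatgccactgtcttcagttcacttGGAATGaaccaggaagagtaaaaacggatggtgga

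The next 5 windows of 200 bp belong to pairs at the ends of the width change and to the pair at Arid5a that the study targeted with guide RNAs. The window near Kdm2a lies in a pair whose TGFβ 2 h interval was much the narrower, and its capitals mark GGAATG and, further on, the reverse complement of the CTCF string. The window near Fam196a lies in a pair whose TGFβ 2 h interval was much the wider, and its capitals mark TGACTCA. The Arid5a window holds TGAGTCA at 2 places and TGTGGTT at 1. The windows near Txn2 and Slc16a11, with the lowest and the highest ratio among pairs with both intervals of at least 150 bp, hold none of the 5 strings.
Kdm2a, chr19:4417320-4417519: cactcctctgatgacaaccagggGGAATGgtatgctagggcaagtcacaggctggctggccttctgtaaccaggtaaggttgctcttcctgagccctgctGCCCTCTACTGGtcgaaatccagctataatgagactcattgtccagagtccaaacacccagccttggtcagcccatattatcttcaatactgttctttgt
Txn2, chr15:77764283-77764482: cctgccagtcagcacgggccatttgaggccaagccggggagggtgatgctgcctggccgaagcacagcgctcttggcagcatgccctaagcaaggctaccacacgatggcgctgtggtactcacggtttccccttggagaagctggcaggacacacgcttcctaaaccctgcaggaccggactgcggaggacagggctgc
Fam196a, chr7:142008482-142008681: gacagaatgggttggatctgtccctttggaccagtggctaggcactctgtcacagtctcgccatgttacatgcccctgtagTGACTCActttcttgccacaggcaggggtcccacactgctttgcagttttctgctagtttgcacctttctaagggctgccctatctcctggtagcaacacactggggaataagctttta
Slc16a11, chr11:70007409-70007608: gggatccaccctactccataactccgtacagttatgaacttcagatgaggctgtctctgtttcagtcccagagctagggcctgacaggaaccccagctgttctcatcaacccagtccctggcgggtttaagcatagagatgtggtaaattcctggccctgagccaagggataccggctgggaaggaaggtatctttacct
Arid5a, chr1:36382798-36382997: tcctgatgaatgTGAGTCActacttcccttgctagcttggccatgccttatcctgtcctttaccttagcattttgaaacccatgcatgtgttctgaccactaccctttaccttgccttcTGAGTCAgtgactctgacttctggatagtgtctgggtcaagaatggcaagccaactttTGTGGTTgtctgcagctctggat

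The distal pairs took up 65.3% of the 7533 distal vehicle intervals (95% interval 64.2 to 66.4) and 41.7% of the 11783 distal TGFβ 2 h intervals (40.9 to 42.6). Most of the other distal intervals had no overlapping base in the opposite list, with 2381 called with vehicle only and 6519 called after TGFβ only. At the edge of the distance rule, 76 pairs lay at most 200 bp beyond the limit of 1000 bp from a start and had a median width ratio of 0.938, while 68 pairs left out at 803 to 999 bp had a ratio of 0.991. Only 2 distal pairs overlapped by 50 bp or less, and 12 TGFβ-only and 10 vehicle-only distal intervals lay within 50 bp of an interval of the other list.

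Most distal pairs lay between genes or in introns. At the midpoint of the shared part, 2717 pairs (55.2%, 53.9 to 56.6) were intergenic and 1905 (38.7%, 37.4 to 40.1) were in an intron of a protein-coding gene. The others were in noncoding genes (2.83%), coding exons (1.97%) and untranslated exons (1.22%). Distal intervals called after TGFβ only were more often intronic, at 43.7% (42.5 to 44.9), and those called with vehicle only were close to the pairs, at 39.0%. Among the intronic pairs, the gene that held the pair also had the nearest protein-coding start in 81.3% of cases (79.5 to 83.0).

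The nearest protein-coding start lay at a median of 22.1 kb from a distal pair, with quartiles of 9.48 and 50.8 kb. It was within 10 kb for 26.2% of the pairs and beyond 100 kb for 10.7% (9.90 to 11.6). Pairs lay upstream of that start about as often as downstream (48.8% upstream, 47.4 to 50.2). TGFβ-only distal intervals lay further out, at a median of 27.8 kb and with 15.8% beyond 100 kb (15.0 to 16.7), whereas vehicle-only ones had a median of 21.7 kb. A start of some other kind of gene, such as a long noncoding RNA, was nearer than any protein-coding start for 26.6% of the pairs (25.4 to 27.8).

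Few distal pairs held a start from a second annotation. The 41 bases around a start in a RefSeq promoter table of the later assembly GRCm38.p6 were found in 218 distal pairs (4.43%, 3.89 to 5.04), against 75.3% of promoter pairs (74.4 to 76.2). A high ratio of observed to expected CpG, above 0.6, was found in 13.3% of distal pairs (12.4 to 14.3) and in 85.7% of promoter pairs (85.0 to 86.4). The median GC content of the central 200 bp was 53.5% in distal pairs, 46.5% in windows 2000 bp away and 68% in promoter pairs. The number of distal pairs per Mb ranged from 0.324 on the X chromosome to 4.35 on chromosome 19, and chromosome 15 was the one with the highest distal share among its distal and promoter pairs, at 51.5%.

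Distal pairs were spread over many genes. They had 3398 protein-coding genes as nearest start, and 2437 of these (71.7%, 70.2 to 73.2) had a single pair, while 60 had 5 or more. Pairs also stood close together, with 956 (19.4%, 18.4 to 20.6) linked to another distal pair by a gap of at most 10 kb. The largest such group held 6 pairs over 25.1 kb between Fosb, an AP-1 gene induced early by growth signals, and the DNA repair gene Ercc1. All 6 were narrower after TGFβ and 2 held the AP-1 string, against 62.1% and 23.2% of all distal pairs and 70.9% narrower over all one-to-one pairs, and no interval called in 1 condition only lay in the group or within 10 kb of it. A group of 5 pairs over 34.6 kb had Tgif1, which encodes a corepressor of SMAD proteins, as nearest start, and 3 TGFβ-only intervals lay within it or within 10 kb.

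Myc, the gene of a transcription factor that drives cell growth, was nearest to more distal pairs than any other protein-coding gene. When every kind of gene was counted, another start, such as that of the pseudogene H2afy3 for 5 pairs, was nearer to all of them. Its 11 pairs lay 56.4 to 514 kb away, 2 upstream and 9 downstream, and 7 of the downstream ones lay in the noncoding gene Pvt1. While 62.1% of all distal pairs were narrower, 8 of these 11 were wider after TGFβ, with a median ratio of 1.09, and the widest by ratio went from 454 to 784 bp. The AP-1 string was in 4 of them, all 4 of them wider after TGFβ.

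Sox9, which encodes a transcription factor of epithelial progenitors, had 9 pairs, all of them 224 to 381 kb downstream of its start. The noncoding gene 2610035D17Rik was nearer to all 9 when every kind of gene was counted. The TGFβ 2 h interval was the narrower one in 7, with a median ratio of 0.890. Over all distal pairs 62.1% were narrower, with a median ratio of 0.932. The pair closest to Sox9 went from 872 to 589 bp.

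Of the other genes with most pairs, Maml3, a Notch coactivator, had 8, of which 7 were narrower after TGFβ (median ratio 0.838), against 62.1% and a ratio of 0.932 over all distal pairs. Zfp36l2, which encodes an RNA-binding protein that promotes mRNA decay, had 8 pairs, 6 of them narrower (0.927), near those values, and 8 TGFβ-only and no vehicle-only intervals lay within 50 kb of them. Irf2bp2, Tomm20, Ctnnb1, Tns3 and 6430527G18Rik had 7 pairs each. For Tomm20, of mitochondrial protein import, a small nucleolar RNA gene, SNORA14, was nearer to all 7. Ctnnb1 encodes β-catenin, a junction protein and Wnt effector, and its 7 pairs were all upstream with a median ratio of 0.997. Tns3, the gene of a focal adhesion protein, had 2 narrower pairs of 7 and a median ratio of 1.01, and 9 TGFβ-only distal intervals had it as nearest start against 1 vehicle-only interval.

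**Figure D1:**
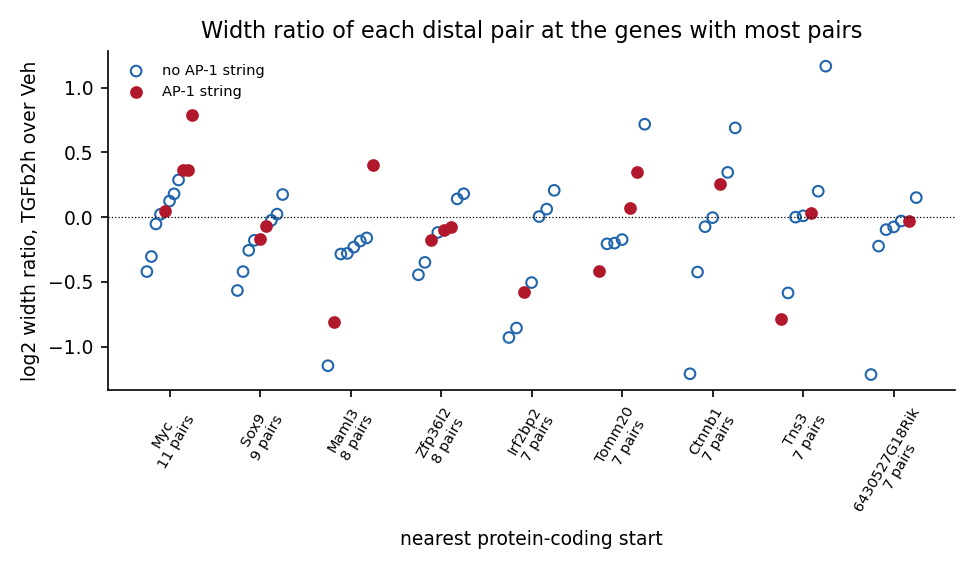
Each point is 1 distal pair at 9 of the 10 genes that were the nearest protein-coding start for most pairs, with the log2 of the TGFβ 2 h width over the vehicle width on the y axis and filled points for pairs with the AP-1 string in the central 200 bp. At Myc 8 of 11 points lie above 0, and at Maml3 7 of 8 lie below it.

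The open stretch of a distal pair was in most cases shorter after TGFβ. The median width was 662 bp with vehicle and 604 bp after TGFβ, and the median ratio of a pair was 0.932 (95% interval from order statistics 0.925 to 0.939). The TGFβ 2 h interval was the narrower one in 3052 pairs (62.1%, 60.7 to 63.4). Over all one-to-one pairs that share was 70.9%, so the distal pairs were less often narrower than the lists as a whole. Widths come from the same lists that chose the pairs, and these values are a description without a test. The study lists more sequenced reads for vehicle than for TGFβ, so depth and treatment cannot be told apart in the widths.

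Large changes in width were more frequent in distal than in promoter pairs, in both directions. A narrowing by 1.5-fold or more was seen in 14.4% of distal pairs, against 10.6% of promoter pairs and 11.9% of all pairs. A widening by as much was seen in 4.98% of distal pairs, against 0.985% of promoter pairs and 2.43% of all pairs. Promoter pairs were longer, at 917 and 803 bp, and had a median ratio of 0.893 (0.888 to 0.898) with 75.8% narrower. Among pairs at the highest score in both lists, narrowing by 1.5-fold or more was about as frequent in distal pairs (7.29%, 5.93 to 8.94) as in promoter pairs (7.88%, 7.25 to 8.56), and widening by as much was seen in 1.48% and 0.339%. In distal pairs the middle 50% of ratios ran from 0.768 to 1.07.

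**Figure D2:**
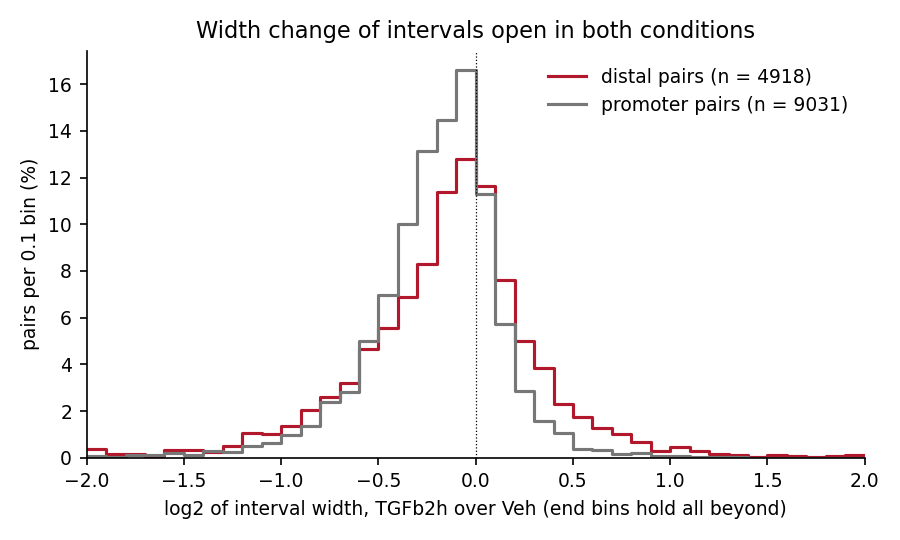
The x axis gives the log2 of the TGFβ 2 h width over the vehicle width and the y axis the percentage of pairs in each bin of 0.1, for 4918 distal and 9031 promoter pairs. The promoter curve lies further below 0, and the distal curve is broader on both sides, with 14.4% of its pairs narrower and 4.98% wider by 1.5-fold or more.

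The 2 edges moved inward about equally often. The left edge moved inward in 58.5% of distal pairs and the right edge in 56.9%. In 35.2% (33.9 to 36.6) the TGFβ 2 h interval lay inside the vehicle interval, and in 17.3% (16.3 to 18.4) the vehicle interval lay inside the TGFβ 2 h one. In 46.6% the interval was displaced sideways, with both edges at higher or both at lower coordinates after TGFβ. The midpoint moved by a median of 51 bp.

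Narrowing was less frequent further from protein-coding starts. With the nearest protein-coding start at 1 to 5 kb, 67.9% of pairs were narrower after TGFβ (63.9 to 71.6), and beyond 100 kb 53.6% were (49.3 to 57.8), with median ratios of 0.917 and 0.977. Intronic pairs had 59.7% narrower (57.5 to 61.9), intergenic ones 63.4% (61.6 to 65.2), and the few in untranslated exons 75% (62.8 to 84.2, n = 60). Pairs that held a RefSeq start sequence resembled promoter pairs, with 74.3% narrower (68.1 to 79.7) and a ratio of 0.883.

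Although most intervals were narrower after TGFβ, more of them had the highest score. Each interval carries a whole-number score from 540 to a ceiling of 1000, and the ceiling was reached by 32.6% of the vehicle and 41.5% of the TGFβ 2 h intervals of distal pairs. It was reached only after TGFβ in 890 pairs and only with vehicle in 449, whereas among promoter pairs it was reached only after TGFβ in 466 and only with vehicle in 843. Scores rank peaks within a list and are not signal, so no change in accessibility was read from them. Among pairs at the ceiling in both lists 63.2% were narrower (60.4 to 65.9, n = 1152). Where only the vehicle interval was at the ceiling 70.4% were narrower (66.0 to 74.4), and where only the TGFβ 2 h interval was, 52.9% (49.6 to 56.2).

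The pairs at the ends of the range, among those with both intervals of at least 150 bp, showed how far the called stretch could change. The lowest ratio was near Txn2, the gene of mitochondrial thioredoxin, where 1021 bp with vehicle became 204 bp, with the ceiling score in both lists. The other low ratios were near Vps37c, of the ESCRT machinery that sorts membrane cargo (861 to 185 bp), Kdm2a, a histone demethylase gene (823 to 191 bp), Amhr2, the gene of a TGFβ family receptor (807 to 189 bp), and Uxs1, of proteoglycan synthesis (677 to 160 bp). One of these 5, near Kdm2a, held the CTCF string and none held the AP-1 string.

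The highest ratio was near Slc16a11, of a family of monocarboxylate carriers, where 218 bp became 1052 bp. The others were near Fam196a, in an intron of Dock1 (211 to 817 bp), near Alkbh3, a demethylase gene of nucleic acid repair (349 to 1301 bp), near B930041F14Rik (230 to 845 bp) and near Ctsb, the gene of the protease cathepsin B (192 to 690 bp). The AP-1 string was in the last 4 of these 5, but over all 245 pairs wider by 1.5-fold or more its share was 24.1%, near that of all distal pairs. Below the limit of 150 bp, the pair in an intron of Itgb5 went from 73 to 1119 bp, the highest ratio of all distal pairs (15.3). A width of 73 bp was also the lowest among distal pairs in either list, and the ratio depends on it.

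The AP-1 string was common in distal pairs. TGACTCA or its reverse complement TGAGTCA was in the central 200 bp of 1141 pairs (23.2%, 22.0 to 24.4). It was in 3.76% (3.27 to 4.33) of windows 2000 bp away and in 2.59% (2.28 to 2.94) of promoter pairs. TGFβ-only distal intervals held it slightly more often, at 27.2% (26.1 to 28.3), and vehicle-only ones far less often, at 7.64% (6.64 to 8.78). In 153 of the distal pairs there were 2 or more copies. The share rose from 18.4% (15.5 to 21.9) at 1 to 5 kb from a protein-coding start to 27.3% (23.6 to 31.2) beyond 100 kb.

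Other strings also differed in frequency between distal pairs, flanks and promoters. The GC-rich KLF and SP string GGGCGGG was in 7.52% of distal pairs (6.82 to 8.29), 2.05% of flanks and 38.1% of promoter pairs (37.1 to 39.2). The CTCF string was in 5.27% of distal pairs (4.68 to 5.93) and 1.81% of flanks (1.47 to 2.22), and reached 10.6% (9.41 to 11.9) in vehicle-only distal intervals. The TEAD string GGAATG, read on both strands like all strings here, was in 16.5% of pairs and 10.6% of flanks. For RUNX (TGTGGTT) the shares were 6.91% and 5.08%, and ETS (CCGGAAG) was in 2.52% of distal and 13.1% of promoter pairs. The SMAD palindrome GTCTAGAC was rare, in 0.224% of distal pairs (0.125 to 0.400) and 0.675% of TGFβ-only distal intervals (0.503 to 0.905). GGCGCC, a GC-rich string that SMAD proteins can bind, was in 5.19% of distal pairs and 21.3% of promoter pairs. Strings may share bases within a window and each was counted on its own.

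**Figure D3:**
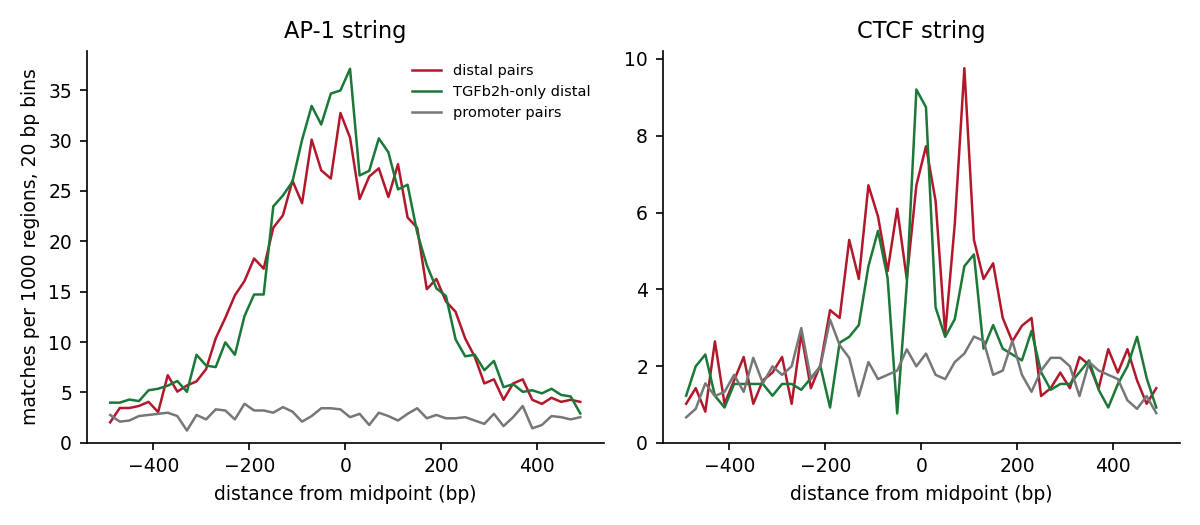
Matches of the AP-1 string (left) and the CTCF string (right) per 1000 regions in bins of 20 bp are plotted against the distance from the midpoint, for distal pairs, TGFβ-only distal intervals and promoter pairs. The AP-1 curve of distal pairs reaches 32.7 next to the midpoint, while that of promoter pairs is flat.

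Pairs with the CTCF string and pairs with the AP-1 string differed in their width change. Pairs with the CTCF string had a median width of 589 bp with vehicle and 480 bp after TGFβ, a median ratio of 0.802 (0.760 to 0.874), and 74.1% narrower (68.5 to 79.1, n = 259). Pairs with the AP-1 string had 699 and 661 bp, a ratio of 0.956 (0.942 to 0.974), and 58.0% narrower (55.1 to 60.9, n = 1141). Those with neither had a ratio of 0.929 (0.922 to 0.937). Read the other way, the CTCF string was in 13.4% (11.1 to 16.1) of the 707 pairs that were narrower by 1.5-fold or more, and in 3.21% to 4.90% of pairs in the 6 wider classes. The AP-1 string was in 16.3% (13.7 to 19.2) of that narrowest class and in 28.3% (25.3 to 31.5) of the 810 pairs with a slight widening, of 5 to 25%. It did not keep rising, and the 245 pairs wider by 1.5-fold or more held it in 24.1% (19.2 to 29.8), near the 23.2% of all distal pairs.

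The difference between pairs with and without the CTCF string was largest, of the 3 width classes, where intervals were short. In the narrowest 1639 pairs by mean width, those with the string had a ratio of 0.665 (0.575 to 0.782, n = 142) against 0.938 (0.921 to 0.956) without it. In the middle 1640 they were 0.907 (0.804 to 1.00, n = 78) and 0.932 (0.921 to 0.946). In the widest 1639 the ratios were 0.875 (0.772 to 0.958, n = 39) and 0.938 (0.927 to 0.948). At the ceiling in both lists, 34 pairs with the string had 0.921 (0.773 to 1.01), an interval that includes the 0.944 of the other pairs. At that score pairs with and without the AP-1 string had ratios of 0.951 (0.934 to 0.973) and 0.938 (0.925 to 0.956), with overlapping intervals, and 63.8% and 63.0% narrower. Width and score moved with the strings, and their part in these differences was not tested.

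**Figure D4:**
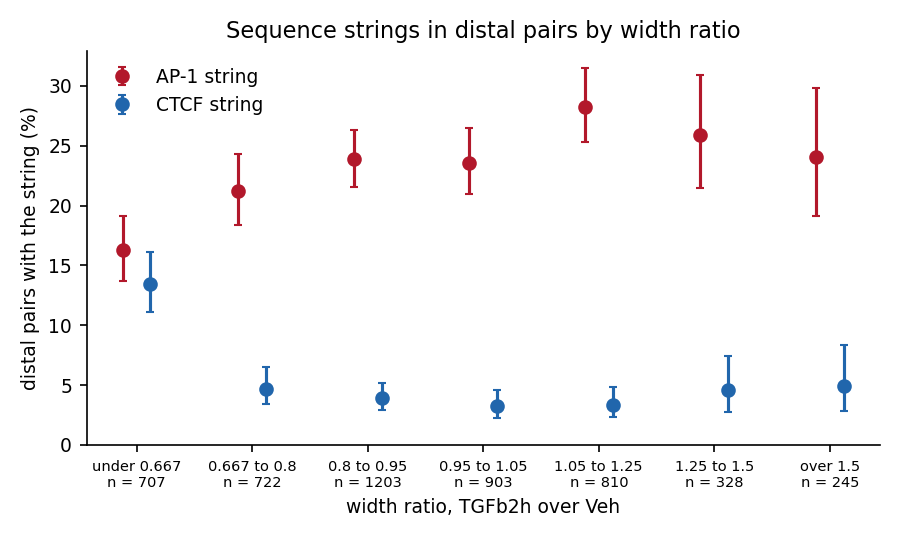
Points give the percentage of distal pairs with the AP-1 string (red) or the CTCF string (blue) in the central 200 bp, by the TGFβ 2 h over vehicle width ratio, with Wilson 95% intervals as bars and the number of pairs under each class. The CTCF share is 13.4% in the lowest class and under 5% in the others.

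Intervals called after TGFβ only stood beside many distal pairs. Within 10 kb of the edges, 963 pairs (19.6%, 18.5 to 20.7) had at least 1 TGFβ-only interval and 471 (9.58%, 8.79 to 10.4) had a vehicle-only one. Both kinds were there for 96 pairs and neither for 3580. Promoter pairs had fewer of each, at 10.7% (10.1 to 11.4) and 6.06% (5.58 to 6.57). Within 50 kb, 57.0% of distal pairs had a TGFβ-only and 31.9% a vehicle-only neighbour.

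The whole TGFβ 2 h list was also the longer one. The number of TGFβ-only over vehicle-only neighbours was 2.23 within 10 kb of distal pairs, against 2.43 for the whole lists (7611 and 3128 intervals) and 1.88 around promoter pairs. When the TGFβ 2 h list was cut by its score to 17802 intervals, near the 17784 of the vehicle list, 14.3% (13.2 to 15.4) of the 4200 remaining distal pairs had a TGFβ-only neighbour and 12.8% (11.8 to 13.9) a vehicle-only one.

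Around distal pairs the density of TGFβ-only intervals fell with distance, and around promoter pairs it showed no such fall. It was 0.0113 intervals per pair per kb within 5 kb of a distal pair and 0.00704 at 95 to 100 kb. Vehicle-only intervals fell likewise, from 0.00500 to 0.00325. Around promoter pairs the TGFβ-only density was lowest within 5 kb, at 0.00514, and highest at 5 to 10 kb, at 0.00696.

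**Figure D5:**
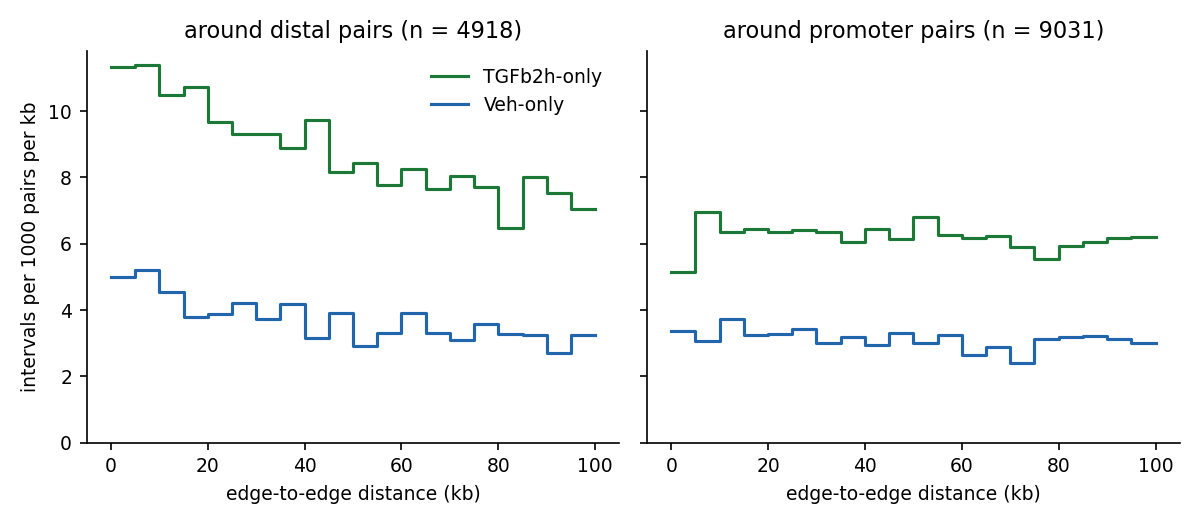
Step lines give the number of TGFβ-only (green) and vehicle-only (blue) intervals per 1000 pairs and kb, by distance between edges, around 4918 distal pairs (left) and 9031 promoter pairs (right). Both lines fall from left to right around distal pairs and are nearly level around promoter pairs.

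Pairs with a TGFβ-only neighbour resembled the others in sequence and nearly in width. The AP-1 string was in 25.3% (22.7 to 28.2) of the 963 and in 22.7% (21.4 to 24.0) of the pairs without such a neighbour. The TGFβ 2 h interval was narrower in 59.8% (56.7 to 62.9) and 62.6% (61.1 to 64.1), with median ratios of 0.947 and 0.927. The TGFβ-only intervals within 10 kb of a distal pair numbered 972 and were 442 bp wide in the median, with 28.6% (25.7 to 31.7) of the distal ones holding the AP-1 string. For the other TGFβ-only intervals these values were 436 bp and 26.9% (25.8 to 28.1).

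The following 5 pairs, each near a different gene, were taken by their number of TGFβ-only intervals within 50 kb. The pair 49.0 kb downstream of Bhlhe40, which encodes a transcriptional repressor of the clock and stress responses, had 8 TGFβ-only and 2 vehicle-only intervals within 50 kb, and was 753 bp with vehicle and 762 bp after TGFβ. The pair in an intron of Eng, the gene of the TGFβ coreceptor endoglin, had 7 and none, was 724 and 655 bp wide and held the AP-1 string. The pair 101 kb downstream of Cebpb, which encodes a bZIP transcription factor, also had 7 and none and held the AP-1 string. Camk1g, of a calmodulin-dependent kinase, and Cdk9, the kinase that releases paused polymerase, had 6 and none each. Other pairs, among them 3 near Smad7 and 1 near Tomm20, also had 6, and Camk1g and Cdk9 were taken first by their position in the genome. The Eng and Cdk9 pairs lie on chromosome 2 at 32509170 to 32509893 and 32570472 to 32570885 in the vehicle list, so TGFβ-only intervals between them can count for both.

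Genes of 10 lists chosen for the TGFβ response were looked up among the nearest starts. The share of all 22372 protein-coding genes with at least 1 distal pair was 15.2% (14.7 to 15.7), and the shares in the lists ran from 4 of 16 to 8 of 10. The lists are short and were chosen with earlier results of these data known, so these counts are a description.

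The lists differed in what lay near their genes. Over all genes there were 6519 TGFβ-only and 2381 vehicle-only distal intervals, and by nearest start the lists had 32 and 3 (genes that limit TGFβ signalling), 25 and 4 (YAP and TEAD), 27 and 11 (epithelial and mammary factors), 16 and 5 (junctions and keratins), 15 and 5 (receptors and SMADs), 15 and 4 (mesenchymal), 13 and 8 (MAPK feedback), 13 and 2 (integrins), 12 and 3 (transition factors) and 7 and 0 (AP-1 factors). A TGFβ-only interval lay within 10 kb of 19.6% of all distal pairs. In the lists that held for 13 of 21 pairs of the genes that limit TGFβ signalling, 7 of 16 of the junction and keratin genes, 3 of 7 of the mesenchymal genes and 4 of 14 of the transition factors. It held for 3 of 12 pairs of the integrins, 3 of 13 of MAPK feedback, 3 of 17 of the epithelial and mammary factors, 2 of 13 of YAP and TEAD, 2 of 14 of the AP-1 factors and 1 of 10 of the receptors and SMADs. The AP-1 string, in 23.2% of all distal pairs, was in 5 of 7 mesenchymal, 5 of 13 MAPK feedback and 4 of 10 receptor and SMAD pairs, and in 3 pairs of every other list.

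Among the AP-1 factors, 6 of 11 genes had 14 pairs, of which 11 were narrower after TGFβ, with a median ratio of 0.860, against 62.1% narrower and 0.932 over all distal pairs. All 5 pairs of Fosb were narrower, and the one in its intron, 1.34 kb from the start, went from 652 to 362 bp. Both pairs of Atf3, a stress-induced AP-1 partner, were narrower (768 to 644 and 608 to 525 bp) and held the AP-1 string. Fos went against the list, with 3 of its 4 pairs slightly wider, and the exception, 12.2 kb downstream, held the CTCF string and went from 884 to 683 bp. Jun, whose product is the main partner of FOS, had 1 pair, 109 kb away.

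Among the genes that limit TGFβ signalling, 6 of 10 had 21 pairs, and several of the 13 with a TGFβ-only interval within 10 kb share a gene. Smad7, the inhibitory SMAD that blocks the receptor, had 5 pairs on both sides of its start and 12 TGFβ-only and no vehicle-only intervals. Its widest pair, 24.7 kb upstream, was 1203 bp with vehicle and 1330 bp after TGFβ. Tgif1 had 6 pairs, all in introns of Dlgap1 at 92.4 kb or more, and Pmepa1, which encodes a membrane protein that sequesters receptor-regulated SMADs, had 4 with a median ratio of 1.03. Both pairs of Ski, a SMAD corepressor gene, were narrower (median ratio 0.629). Of all 21 pairs of the list, 13 were narrower with a median ratio of 0.925, near the 62.1% and 0.932 of all distal pairs.

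Of the receptors and SMADs, 4 of 9 genes had 10 pairs, 8 of them narrower, against 62.1% of all distal pairs. The 3 pairs of Tgfbr2, the gene of the type II receptor, were all upstream and all narrower, among them 798 to 562 bp at 201 kb. Smad3, the gene of a receptor-regulated SMAD, had 5 pairs, 3 of them with the AP-1 string. They were mixed in direction, from 706 to 490 bp upstream of the gene to 575 to 851 bp in an intron.

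The transcription factors of the mesenchymal transition had 14 pairs at 8 of 10 genes, of which 7 were narrower with a median ratio of 1.03, against 62.1% and 0.932 over all distal pairs. Snai1, which encodes a repressor of E-cadherin, had 3 pairs of nearly unchanged width (1104 and 1192, 590 and 642, and 625 and 614 bp), each with a TGFβ-only interval within 10 kb. Sox4 had 3 pairs, 2 of them wider. Snai2 and Twist1 had none.

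Epithelial junction and keratin genes had 16 pairs at 10 of 19 genes, 11 of them narrower (median ratio 0.889), against 62.1% and 0.932 over all distal pairs. Cdh1, the gene of E-cadherin, had 3, of which the intronic one with the AP-1 string went from 980 to 640 bp and another intronic one stayed at 535 and 541 bp. Krt18, of a simple epithelial keratin, had 3 wide pairs, the widest of them 1243 and 1354 bp. At Cldn4, a tight junction gene, 1 of 2 pairs widened from 556 to 741 bp. Mesenchymal and cytoskeletal genes had 7 pairs at 4 of 16 genes. Acta2, Tagln, Vim and Fn1 had none. Tpm1, the gene of an actin-binding tropomyosin, had 4 of the 7. Of the 7, 6 were narrower, against 62.1% of all distal pairs.

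Integrin genes had 12 pairs at 6 of 9 genes, 6 of them narrower, against 62.1% of all distal pairs. Itgb6, which encodes an epithelial integrin subunit that activates latent TGFβ, had 6 intronic pairs, from one that went from 621 to 211 bp to one that widened from 377 to 437 bp, with another at 620 and 624 bp. Genes of the YAP and TEAD pathway had 13 pairs at 7 of 12 genes with a median ratio of 0.907, against 0.932 over all distal pairs. Ctgf, a matricellular target of this pathway, had pairs of 426 and 445 bp and of 699 and 652 bp.

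Epithelial and mammary transcription factors had 17 pairs at 10 of 14 genes, 11 of them narrower, near the 62.1% of all distal pairs. Klf4 had 4, from 1110 to 545 bp at one end and 409 to 740 bp at the other. Grhl2, which encodes a factor that maintains epithelial identity, had 2, neither narrower, one of them 355 and 785 bp. In the list of MAPK feedback genes 4 of 13 pairs were narrower, at 7 of 10 genes and with a median ratio of 1.04, against 0.932 over all distal pairs. All 3 pairs of Spred2, which encodes an inhibitor of the RAS to MAPK pathway, were slightly wider (732 and 854, 800 and 803, and 782 and 814 bp), and so were 2 of the 3 of Dusp4, a MAP kinase phosphatase gene.

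As a check of the cell type, 7 of 15 epithelial marker genes (46.7%) had a distal pair as nearest start, with 15 pairs in all, against 15.2% of all protein-coding genes. Of 19 markers of blood, liver, neurons, muscle and endothelium 3 had one (15.8%, near the share of all genes), with 5 pairs. These were the neuronal marker Snap25 and 2 of the 3 endothelial markers, Pecam1 and Cdh5. The blood, liver and muscle markers had none.

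Some distal pairs coincide with regions that the study targeted with guide RNAs for CRISPR interference. Each of the 6 guides matched 1 place in the genome. A pair 14.2 kb downstream of the start of Arid5a, which encodes an RNA-binding and DNA-binding protein, was 809 bp with vehicle (chr1:36382494-36383302) and 988 bp after TGFβ, a ratio of 1.22. One guide lay inside it, within the window printed above, and the other lay 45 bp outside. A pair 21.4 kb downstream of Tnnt2, the gene of cardiac troponin T, was 1102 bp with vehicle (chr1:137758434-137759535) and 943 bp after TGFβ, at the ceiling in both lists, and both of its guides lay inside. The 2 guides for Amigo1 fell in an untranslated exon of that gene, inside an interval called after TGFβ only and 26.2 kb or more from the nearest distal pair. The 4 guides at distal pairs are shown with the 3 following genomic bases in capitals, each ending in GG as the PAM of Cas9 from Streptococcus pyogenes does.
SgARID5A-1, chr1:36383376-36383395, minus strand: gtcctaccacatgaatccagGGG
SgARID5A-2, chr1:36382940-36382959, plus strand: gatagtgtctgggtcaagaaTGG
SgTNNT2-1, chr1:137759214-137759233, minus strand: gggactggagtctattgccaGGG
sgTNNT2-2, chr1:137758644-137758663, minus strand: gccactcaacagatatgaggGGG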

How the data were processed

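DNaseI-seq peak lists of NMuMG cells were analysed for 2 samples, grouped by their titles. The submitters' processing notes name the build mm9, MACS2 2.1.2 and deepTools. The methods state that DNaseI-seq followed the ATAC-seq pipeline with options that are not given. For ATAC-seq only peaks reproducible between replicates were kept. Whether and how that filter was applied to these DNaseI lists is not stated. Every interval comes with a score that the authors deposited, a whole number from 540 to 1000, which was used to shorten a list by rank and to count the intervals at the highest score of each list. The lists held 70449 (vehicle) and 68542 (TGFβ 2 h) rows, several per interval, and identical intervals were collapsed to 17784 and 22600. Read depth is not in the lists. The study lists more reads for vehicle than for TGFβ 2 h, with 1 library total per condition, so depth and treatment cannot be told apart.

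Pairs, neighbours and locations were computed with Python 3.11.15, pandas 2.3.3, numpy 2.4.6 and scipy 1.17.1, and sequence was read from NCBIM37 (mm9) with pysam 0.24.0. In each list 1 interval ran 37 bp past a chromosome end. Location and distance were taken at the midpoint of the shared part of a pair, and neighbour distances between edges. Exact strings were searched on both strands in 200 bp and in windows of that size 2000 bp upstream on the chromosome. Where models overlapped, coding exons came before untranslated exons, introns and noncoding genes. Shares have Wilson 95% intervals for counting error only. Scripts were tested on simulated data.

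Named genes were the 10 nearest to most pairs, the 5 lowest and 5 highest width ratios with both intervals of at least 150 bp, the 5 pairs with most TGFβ-only intervals within 50 kb, up to 3 genes per list with most pairs, the pairs at guide sites, and, for printed sequences, the pair nearest a listed gene with a string within 30 bp of the midpoint, ceiling scores first. The strings searched numbered 16. RefSeq starts of GRCm38.p6 were matched by sequence only. Alternatives were the overlap, the least width, the starts used, the score, the neighbour distance and the string window. Other genes of the lists and Itgb5 were named after their values were seen, as were the groups of linked pairs. Of the genes this rule names, 2 are not reported here. Gene symbols are those of GENCODE M1. The members and the gene lists were chosen with earlier results of these data known.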

Additional observations from a re-analysis of the deposited data

How the results depend on the processing

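Of 34 alternative values for the 6 main results, 22 kept inside the main value's 95% interval or, for counts, differed by less than 1.5 times, and 12 moved further. Cutting the TGFβ 2 h list by score to the number of vehicle intervals gave 60.5% narrower, a median width ratio of 0.942, 14.3% of pairs with a TGFβ-only interval within 10 kb and 24.7% with the AP-1 string. Keeping pairs with both intervals at the highest score gave 1152 pairs, a ratio of 0.943 and 32.8% in introns. A reciprocal overlap of 50% gave 23.6% with a TGFβ-only neighbour, since intervals that overlap by less then count as TGFβ-only. Neighbours within 5 kb were found for 10.5% and within 50 kb for 57.0%. The AP-1 string was in 12.2% with a window of 100 bp and in 43.7% over the whole shared part. Except for the changed distances and windows and the construction named for reciprocal overlap, the cause was not tested. No paired analysis was possible because there is only 1 list of peaks for each treatment. The lists give neither depth nor signal, so how firmly a site is absent from 1 list is unknown. Intervals from counting are narrow because the lists are long.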
